A study of Mus musculus with 4 samples.

Results

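A set of 10 genes for surface molecules of lymphocyte costimulation, checkpoint control and early activation was followed in cultured mouse spleen cells with and without imatinib. The genes were Cd80, Cd86, Cd274, Pdcd1lg2, Icosl, Cd83, Cd69, Ctla4, Icos and Pdcd1. They were chosen by name, and every non-control probe that carried one of these names in the scanner files was kept, which gave 13 of the 39429 probes on the array. Splenocytes of female C57BL/6 mice, 8 weeks old, were cultured for 72 h, and both groups received IL-4 and LPS throughout. Imatinib, which inhibits the tyrosine kinases ABL, KIT and PDGFR, was added at 10 µM to one group and left out of the controls. The RNA was read on 2 Agilent 1-colour arrays a group, all on 1 slide. The cells were whole splenocytes and not a sorted population. Nothing in the labels tells if replicates were separate mice or cultures, so the p-values may measure technical spread alone. With 2 arrays a group, an exact permutation test cannot give a two-sided p under 0.333.

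Lymphocyte activation needs a second signal beside the antigen receptor. CD80 and CD86 on antigen-presenting cells, B cells included, bind CD28, which drives T cell activation, and CTLA-4, which restrains it. ICOS ligand binds ICOS, a costimulator of helper T cells, while PD-L1 (Cd274) and PD-L2 (Pdcd1lg2) bind the inhibitory receptor PD-1 (Pdcd1). CD69 appears on lymphocytes soon after stimulation and retains them in tissue, and CD83 is a marker of mature dendritic cells and activated B cells. LPS and IL-4 each raise some of these molecules on B cells.

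In the imatinib samples, 2 of the 3 costimulatory or inhibitory receptors of the set, Icos and Pdcd1, were several-fold higher, while Ctla4 did not pass the test. Among the ligands, Cd274 and Icosl rose and Cd86 fell by smaller amounts, and Pdcd1lg2 did not pass. Cd69 fell and Cd83 did not pass. In unsorted cells, a change in the number of cells of a type and a change in RNA per cell cannot be told apart. Of the 10 genes, each read by its brightest probe, 4 rose and 2 fell (Benjamini-Hochberg adjusted p under 0.05 over all probes in limma). Over all genes tested, 41.6% passed, of which 18.8% rose and 22.8% fell as shares of all genes, so the share of the 10 genes called is not far from the background. Icos and Pdcd1, 2 of the 10, rose at least 2-fold, against 6.13% of all genes, and 0 of the 10 fell at least 2-fold, against 1.35%. The median difference of the 10 genes was 0.02 on the log2 scale, against -0.0037 over all genes.

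Each probe is an oligonucleotide of 60 bases, and the files do not say which part of a transcript it lies in. Stretches of 30 bases are shown, 5′ to 3′, for the genes with 2 probes, since the reading of these genes depends on the probe. Those of Cd86 and Icosl are shown for the hexamer in capitals. The capitals mark AATAAA, the hexamer of polyadenylation signals near the end of messenger RNAs. It occurs in 12.6% of all probes on the array, in 1 Icos probe and in the probes of Cd86 and Icosl.
Icos A_55_P1991773: tcctgaacagccAATAAAtatgctttgtga
Icos A_51_P371279: tagaaccaacatgctctcttccaattccta
Cd86 A_55_P1971951: agagtggatttcAATAAAgttttcttgaat
Icosl A_51_P520966: acctaacaagggAATAAAtgtaagatgtgc
Cd80 A_55_P2001218: aaaggagaggtgcctagtcttactgcaact
Cd80 A_66_P130432: ttcaatacgactcgcaaccacaccattaag

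The 2 Pdcd1lg2 probes are near copies of each other. They align over 57 bases with 2 mismatches, C53T and G58A, with positions counted from the 5′ end of A_55_P2122075. One was designed on the RefSeq transcript and the other on a GenBank record titled butyrophilin-like protein. Since they share nearly all bases, they are repeated measurements of nearly the same target rather than separate evidence. The capitals mark the mismatches.
Pdcd1lg2 A_55_P2122075: tggaagcatttaagcaacacgtCaagtGcc
Pdcd1lg2 A_55_P2187141: tggaagcatttaagcaacacgtTaagtAcc

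Each value is a log2 signal from which the 75th percentile of its own array was subtracted, and differences are imatinib minus control on that scale. Levels of different probes were not compared, because probes differ in how well they bind. The 13 probes were well above background on all 4 arrays. On 12 of the 13, the imatinib and control arrays did not overlap, against 73.4% of all probes tested.

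**Figure D1:**
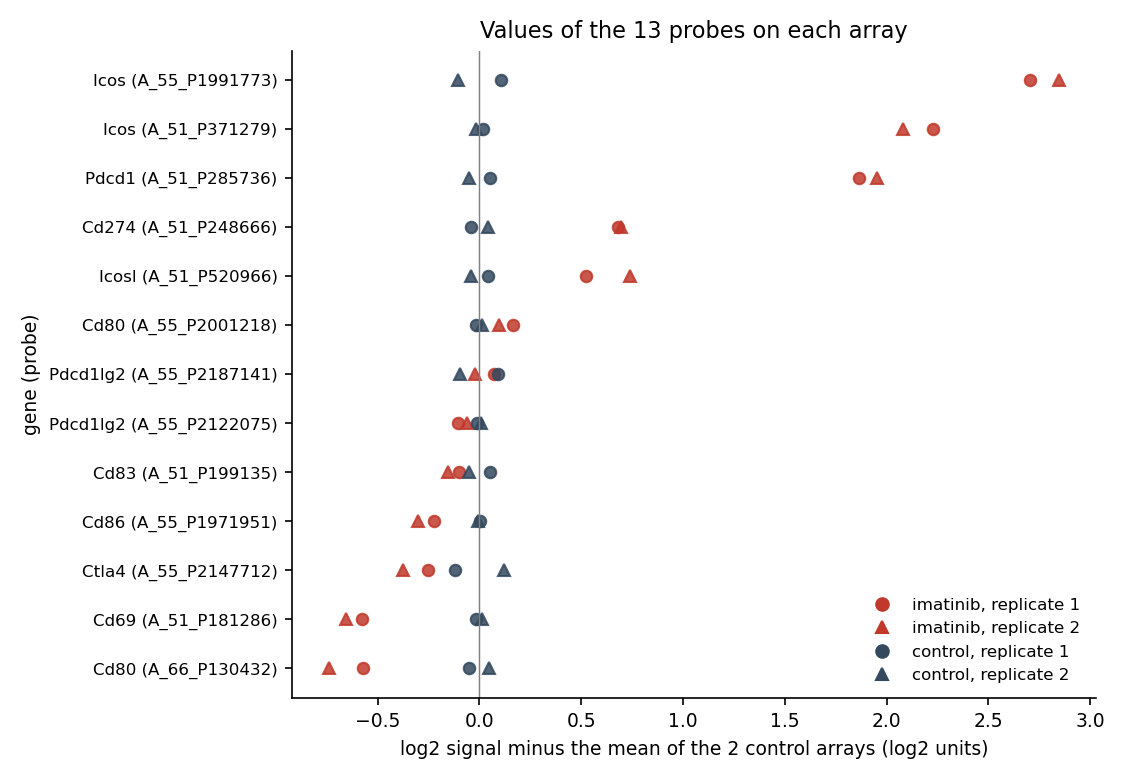
Log2 signal of each of the 13 probes on each array, minus the mean of the 2 control arrays (x axis, log2 units), with genes and probes in rows. Red points are imatinib arrays and dark points control arrays, with circles for replicate 1 and triangles for replicate 2. Both Icos probes and Pdcd1 sit far to the right, Cd69 and 1 Cd80 probe lie at the left, and the second Pdcd1lg2 probe is the one on which the groups overlap.

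Icos encodes the inducible costimulator of activated T cells. On probe A_55_P1991773 it read -1.71 and -1.57 with imatinib and -4.31 and -4.52 without. The control arrays thus lay far below both imatinib arrays, and their own distance was small beside the gap. The difference was 2.78 (SE 0.11, limma adjusted p = 0.000881), a 6.85-fold rise. The second probe, A_51_P371279, read -3.34 and -3.49 with imatinib and -5.55 and -5.59 without, a rise of 2.15 (SE 0.078, adjusted p = 0.000821). Both probes rose, by different amounts. Out of 20544 genes tested, 152 had a larger difference than Icos. The control signals were dim: the processed signal of the first probe was 34.1 and 34.0 in the controls against 197 and 211 with imatinib. At such levels the size of the rise rests on the background correction. With normexp, the other correction tried, the probes differed by 1.57 and 0.71, and both still passed.

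Pdcd1 encodes PD-1, an inhibitory receptor that appears on T cells after stimulation. Its log2 signal was 0.85 and 0.94 with imatinib and -0.96 and -1.07 without. Both imatinib arrays were higher than both control arrays by much more than the arrays of a group differed. The rise was 1.91 (SE 0.073, adjusted p = 0.000895), or 3.76-fold, and 477 genes had a larger difference. Unlike Icos, Pdcd1 was bright in both groups, with processed signals of 348 and 374 without imatinib, and normexp gave 1.71.

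Ctla4 encodes the inhibitory counterpart of CD28 and is known for its high level in regulatory T cells. It read -2.55 and -2.67 with imatinib and -2.42 and -2.17 without. The imatinib arrays were both lower, but the control arrays lay nearly as far apart as the groups did. The difference was -0.31 (SE 0.11) and did not pass (adjusted p = 0.093). It passed under median centring, where it was -0.48 (adjusted p = 0.033), and under spike-in scaling, where it was -0.58 (adjusted p = 0.015). It also passed with normexp (adjusted p = 0.040), with a trend and robust variance model (0.034) and without control replicate 1 (0.0498).

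Ctla4 and Icos are neighbours on chromosome 1, next to Cd28, in the RefSeq table of assembly GRCm38.p6. Cd28, the main costimulatory receptor of T cells, read 0.76 and 0.74 with imatinib and -2.05 and -2.10 without, a rise of 2.82 (SE 0.060, adjusted p = 0.000677). The genes on either side of Ctla4 in this cluster thus rose, and Ctla4 was lower on both imatinib arrays without passing the test. With normexp Cd28 rose by 2.44, more than either Icos probe.

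Markers of T cells moved in the same arrays. Of 11 T cell markers, all above background on every array, 9 rose and none fell, with a median difference of 2.03 and a range of 0.05 to 2.57. Cd3e, a chain of the T cell receptor complex, rose by 1.26, and Cd8a, the coreceptor of cytotoxic T cells, rose by 2.42. Cd4, the coreceptor of helper T cells, differed by 0.05 and did not pass (adjusted p = 0.74). The summed level of the 11 markers was 5.28 and 5.30 with imatinib and 4.41 and 4.38 without. Such a sum adds unlogged signals, so bright probes weigh most. Here that was Thy1, at 4.65 and 4.65 with imatinib and 3.95 and 3.98 without. The mean log2 signal of the 11 markers was 0.05 and 0.08 with imatinib and -1.49 and -1.56 without. The part of these markers in the rise of Icos and Pdcd1 was not tested. The rise of Icos on its brighter probe lay above the range of the T cell markers, and that on its second probe (2.15) lay within it. The rise of Pdcd1 also lay within the range, and the value of Ctla4 lay below it. With normexp the markers ranged from 0.044 to 1.95, and the brighter Icos probe at 1.57 then lay within the range too.

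The receptors were therefore also set against the T cell markers on the same array, which removes any scaling between arrays. Icos minus the mean of the 11 markers was -1.77 and -1.65 with imatinib and -2.82 and -2.96 without, so Icos was higher by 1.19 relative to them (exact permutation p = 0.333, the smallest possible). Pdcd1 minus the markers was 0.80 and 0.86 with imatinib and 0.53 and 0.50 without, a difference of 0.32. The sign for Pdcd1 rests on the use of the mean, since its rise of 1.91 lay below the median marker rise of 2.03. With normexp its rise lay above the marker median. The mean includes the small values of Cd4 (0.05) and Cd247 (0.27, but 1.52 on a second Cd247 probe). Whether Pdcd1 rose more than the T cell markers thus cannot be stated. Ctla4 minus the markers was -2.60 and -2.74 with imatinib against -0.93 and -0.61 without, a difference of -1.90. The groups did not overlap for any of the 3 genes, nor for any other gene of the set when set against these markers. In their own signal, the groups did not overlap on 73.4% of all probes tested. With normexp the 3 differences were 0.34, 0.47 and -1.44, so the size for the brighter Icos probe depends on the background correction. Between the receptors themselves, Icos (brighter probe) minus Ctla4 differed by 3.09 and Pdcd1 minus Ctla4 by 2.22 (1.78 and 1.92 with normexp).

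**Figure D2:**
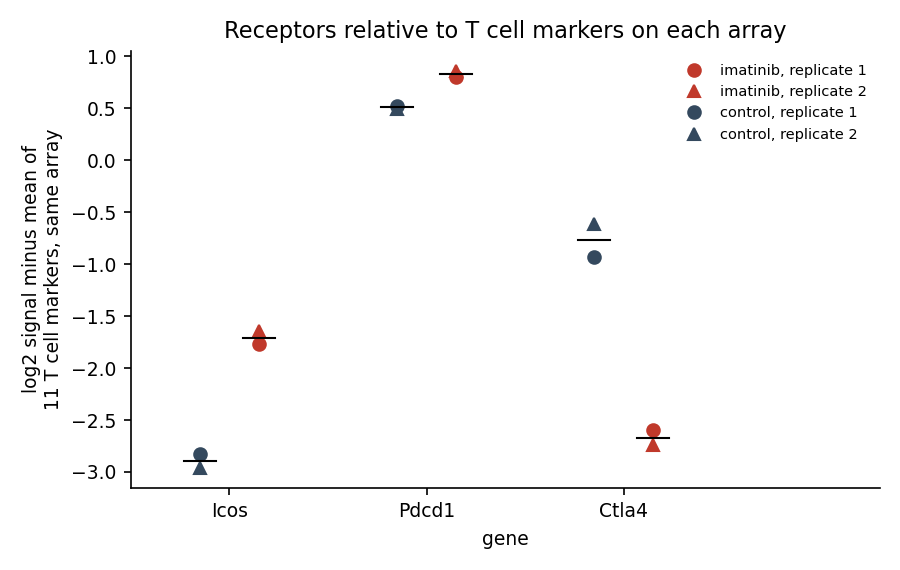
Log2 signal of Icos, Pdcd1 and Ctla4 minus the mean of 11 T cell markers on the same array (y axis, log2 units), with control arrays at the left and imatinib arrays at the right of each gene and bars at the group means. Heights of different genes are not comparable. Within a gene, the imatinib arrays lie above the control arrays for Icos (brighter probe) and Pdcd1 (differences of 1.19 and 0.32). For Ctla4 they lie below them (-1.90). The rise of Pdcd1 (1.91) was below the median rise of the markers (2.03), though not with normexp.

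Cd80 and Cd86 encode the ligands of CD28 and CTLA-4. Cd86 read 1.83 and 1.75 with imatinib and 2.06 and 2.05 without. Both imatinib arrays were lower, and the difference of -0.26 passed (SE 0.063, adjusted p = 0.035). The call is not firm: it ended with each array left out (adjusted p 0.090 to 0.199), under quantile normalization (-0.17, adjusted p = 0.087) and when dim probes were kept (adjusted p = 0.123).

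Cd80 gave a different answer on each of its probes. The brighter one, A_55_P2001218, read -0.83 and -0.89 with imatinib and -1.01 and -0.98 without, a difference of 0.13 that did not pass (SE 0.062, adjusted p = 0.16). The dimmer one, A_66_P130432, read -2.68 and -2.84 with imatinib and -2.15 and -2.05 without, a fall of 0.66 (SE 0.089, adjusted p = 0.0095). The first was slightly higher and the second clearly lower with imatinib, with no overlap on either. The sign of the first turned under median centring (-0.040) and spike-in scaling (-0.13), while the fall on the second had the same sign under every alternative and lost its call without imatinib replicate 2 (adjusted p = 0.052). The probes do not overlap in sequence, and which transcript forms each one reads was not analysed here. Whether Cd80 changed thus cannot be stated from these arrays. Within the array, Cd86 minus Cd80 differed by -0.40 with the brighter Cd80 probe and by 0.39 with the dimmer one, each without overlap (exact permutation p = 0.333), so that the direction turned with the probe.

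Cd274 and Pdcd1lg2 encode the ligands of PD-1. Cd274 read 0.07 and 0.08 with imatinib and -0.66 and -0.57 without, so that the imatinib arrays agreed closely and both exceeded the control arrays. It rose by 0.69 (SE 0.063, adjusted p = 0.0046), or 1.61-fold, and kept its call under all 13 alternatives. The brighter Pdcd1lg2 probe, A_55_P2122075, read -1.93 and -1.89 with imatinib and -1.84 and -1.82 without. Its difference of -0.08 did not pass (SE 0.058, adjusted p = 0.32), but under spike-in scaling it was -0.35 and passed (adjusted p = 0.019). The other probe, A_55_P2187141, overlapped between the groups and differed by 0.02 (SE 0.093, adjusted p = 0.85). Within the array, Pdcd1lg2 minus Cd274 was -1.98 ± 0.020 (SD, n = 2) with imatinib and -1.21 ± 0.045 (SD, n = 2) without, and the groups did not overlap. The pair differed by -0.77 (exact permutation p = 0.333), and leaving out any array gave -0.80 to -0.74.

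These 2 ligand genes are neighbours on chromosome 19, with RefSeq starts 43481 bases apart in GRCm38.p6. Their upstream regions, 250 bases before the start on the plus strand, are shown because the neighbours differed in response. They were searched on both strands for an NF-kB motif (GGG and CC with any 5 bases between), a STAT6 motif (TTC and GAA with any 4 bases between), the AP-1 motif TGANTCA and the NFAT core TGGAAA, since LPS acts through NF-kB and IL-4 through STAT6. Of all upstream regions of this length, 45.8% held the first motif, 5.9% the second, 6.7% the third and 18.6% the fourth. Matches are in capitals. Pdcd1lg2 held 1 NF-kB motif that begins 244 bases before the start and 1 STAT6 motif that begins 82 bases before it, and the Cd274 window held none of the 4. A match is a string of letters and not a binding site.
Cd274, chr19:29367188-29367437: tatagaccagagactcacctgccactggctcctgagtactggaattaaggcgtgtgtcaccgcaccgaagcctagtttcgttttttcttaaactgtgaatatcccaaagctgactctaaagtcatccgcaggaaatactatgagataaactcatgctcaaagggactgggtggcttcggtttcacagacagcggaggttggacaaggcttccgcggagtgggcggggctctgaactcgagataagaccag
Pdcd1lg2, chr19:29410669-29410918: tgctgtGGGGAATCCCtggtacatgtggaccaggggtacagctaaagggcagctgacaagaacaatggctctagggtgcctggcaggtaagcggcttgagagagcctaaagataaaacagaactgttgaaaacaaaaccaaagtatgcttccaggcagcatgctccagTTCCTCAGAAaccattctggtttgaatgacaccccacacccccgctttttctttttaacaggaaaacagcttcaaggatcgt

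Icosl encodes the ligand of ICOS, which B cells and other antigen-presenting cells carry. It read -2.10 and -1.88 with imatinib and -2.58 and -2.66 without. The imatinib arrays differed more from each other than the control arrays did, yet both were higher. The rise was 0.63 (SE 0.099, adjusted p = 0.013), or 1.55-fold. The call ended without imatinib replicate 2 (adjusted p = 0.057), without control replicate 2 (0.058) and when dim probes were kept (0.055), always with the same sign.

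Cd69 and Cd83 are the activation markers of the set. Cd69 read 1.64 and 1.56 with imatinib and 2.20 and 2.23 without. Both imatinib arrays were well below the control arrays. It fell by 0.62 (SE 0.064, adjusted p = 0.0057) and kept its call under all 13 alternatives, and 1198 genes had a lower difference. Cd83 was bright in both groups, with 6.30 and 6.25 with imatinib and 6.45 and 6.35 without. Its imatinib arrays were lower by little more than the arrays of a group differed, and the difference of -0.13 did not pass (SE 0.069, adjusted p = 0.22). It passed under median centring (-0.30, adjusted p = 0.042) and spike-in scaling (-0.39, adjusted p = 0.015). Cd83 minus Cd69 was higher by 0.49 within the array, without overlap (exact permutation p = 0.333).

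Markers of the cells that can carry the ligands moved as follows. Of 11 B cell markers, 6 fell and 2 rose, with a median of -0.27 and a range of -1.06 to 0.81. Among them Ms4a1, which encodes CD20, fell by 0.27. Of 9 macrophage markers tested out of 13, 5 rose and none fell, with a median of 0.50 and a range of -0.41 to 3.59. Adgre1 (Emr1 in the files), the macrophage antigen F4/80, rose by 3.59, and Csf1r, the receptor of macrophage colony-stimulating factor, differed by 0.26 and did not pass (adjusted p = 0.11). Of 5 dendritic cell markers tested out of 8, Itgax was above background only with imatinib, at least 2.53-fold higher, while Flt3 and Batf3 fell by 1.42 and 1.20. Of 7 NK cell markers 4 were tested, of which 3 rose and Klrd1 fell by 0.41. Of 6 neutrophil markers 5 were tested, of which 4 rose and Ly6g fell by 0.60. The summed level of the 4 above background on all arrays was 1.17 and 1.30 with imatinib against 1.49 and 1.46 without. Ly6g, the brightest of them, weighed most in that sum. The mean log2 signal of the same 4 went the other way, at -1.84 and -1.75 with imatinib against -3.62 and -3.62 without. Of 5 mast cell and basophil markers 3 were tested and rose, among them Mcpt8 and Cpa3, which entered the test through the imatinib arrays alone and were at least 1.32-fold and 1.57-fold higher. The NK cell marker Ncr1 was not well above background on any array. The summed level of 11 B cell markers was 8.13 and 8.18 with imatinib and 8.38 and 8.29 without, and that of 8 macrophage markers was 3.22 and 3.23 against 2.12 and 2.06. The part of these shifts in the ligand values was not tested.

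Set against the mean of the 11 B cell markers on the same array, the ligands and activation markers did not all move alike. Cd274 was higher by 0.92 and Icosl by 0.86, without overlap of the groups. Cd86 differed by -0.04 and overlapped (exact permutation p = 0.667), and Cd69 differed by -0.39 without overlap. Smaller differences, also without overlap, were those of Pdcd1lg2 (0.14, or 0.24 with normexp) and Cd83 (0.10). Cd80 differed by 0.36 on its brighter probe and by -0.43 on the dimmer one. For the comparisons without overlap the exact permutation p was 0.333. Against the mean of 8 macrophage markers, Cd274 and Icosl differed by -0.59 and -0.65, and by -0.31 and -0.44 with normexp.

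**Figure D3:**
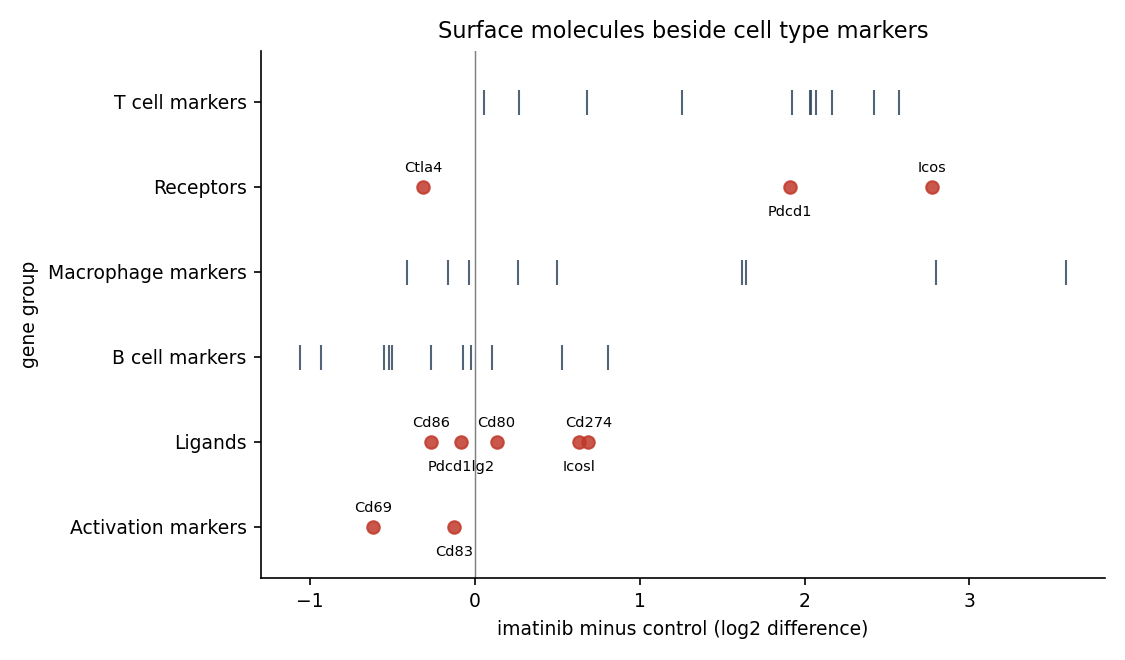
Difference between imatinib and control (x axis, log2) for the 10 genes, read by the brightest probe (red points), beside each tested T cell, macrophage and B cell marker (dark ticks), with gene groups in rows. Icos lies above all 11 T cell markers, though not with normexp or on its second probe (2.15), and Ctla4 lies below them. The ligands and activation markers lie within the range of the B cell markers.

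The direction of the small differences depended on how the arrays were scaled. Compared with the 75th percentile, median centring lowered every difference by one constant and spike-in scaling by a larger one, so that the median gene stood at -0.18 and -0.27. Over all 25375 probes, 42.4% passed at the 75th percentile, 18.7% (4734) as higher and 23.7% (6013) as lower. Median centring gave 3305 higher and 9251 lower probes, and spike-in scaling 2802 and 11739. For the 10 genes these settings gave 4 higher each, with 2 lower at the 75th percentile, 4 lower with median centring and 5 lower with spike-ins. Icos, Pdcd1, Cd274 and Icosl passed as higher under each of these scalings, and Cd69 as lower. Leaving out imatinib replicate 2 or control replicate 2 left 3 higher and 1 lower, and leaving out imatinib replicate 1 left 4 higher and 1 lower.

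**Figure D4:**
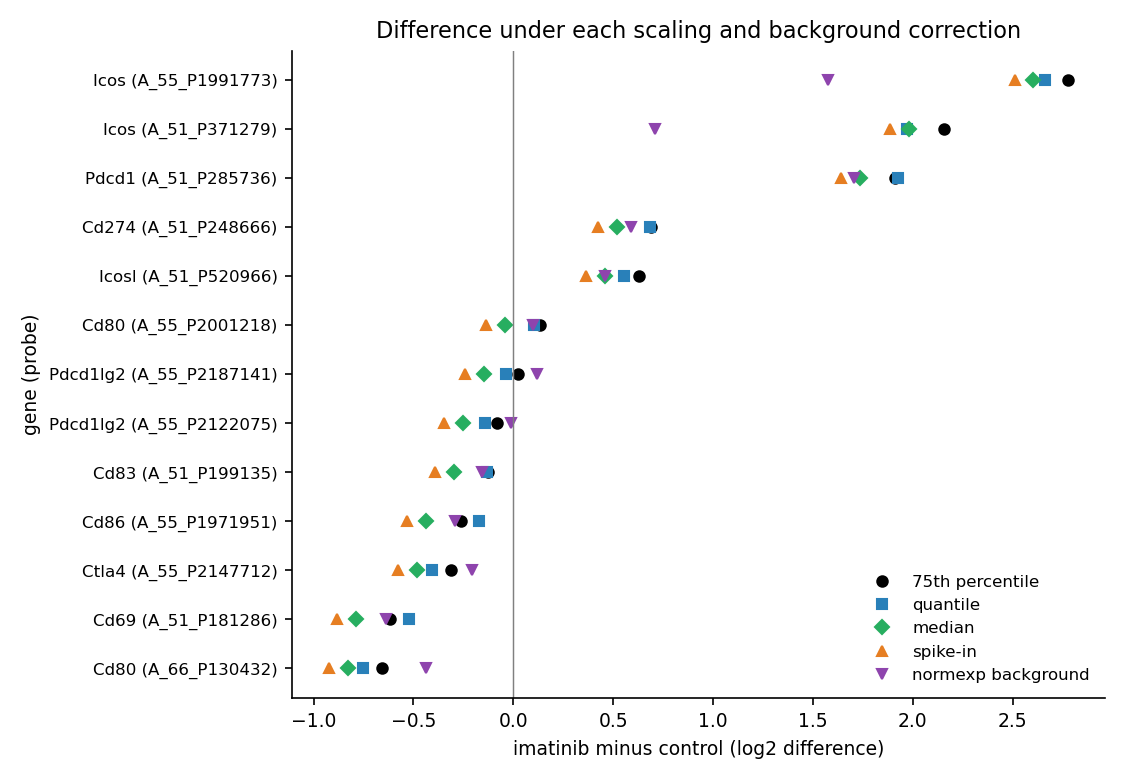
Difference between imatinib and control (x axis, log2) for each of the 13 probes under 4 scalings between arrays and 1 other background correction (symbols). Spike-in scaling gives the lowest value on most probes; Icos, Pdcd1, Cd274 and Icosl stay to the right of 0 and Cd69, Cd86 and Ctla4 to the left under each, whereas the brighter Cd80 probe and the second Pdcd1lg2 probe cross it.

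Other receptors, ligands and activation molecules were taken from a list of 33 genes, of which 28 were tested. Of these, 15 rose and 8 fell, against 18.8% and 22.8% of all genes. The 15 include Cd200r1, Cd226 and Havcr2, which entered the test through the imatinib arrays alone. With only probes above background on all 4 arrays, 12 rose and 9 fell. Median centring gave 12 higher and 10 lower, as did spike-in scaling, beside the shift of all probes to lower values given above. Leaving out imatinib replicate 1 or imatinib replicate 2 left 12 higher and 5 lower.

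Beside Cd28, the largest rises above background on all arrays were those of Sirpa, Lag3, Cd96 and Il2ra. Sirpa, an inhibitory receptor of myeloid cells, read 0.54 and 0.55 with imatinib and -2.22 and -2.10 without, a rise of 2.70 (SE 0.070). The checkpoint receptor Lag3 rose by 2.01 (SE 0.14) and Cd96, a receptor of T and NK cells, by 1.53 (SE 0.071). Il2ra, the alpha chain of the IL-2 receptor and a marker of activation, rose by 0.99 (SE 0.062). Whether the higher T cell and macrophage markers have a part in these rises was not tested. Cd200r1, Cd226 and Havcr2 (TIM-3) were above background only with imatinib. The rise was at least 4.57-fold for Cd200r1, at least 2.98-fold for Cd226 and at least 1.70-fold for Havcr2, taken against the lowest signal called above background on each control array or the signal of the gene where that was higher. Among Sirpa, Lag3, Cd96 and Il2ra, which were picked as large rises that passed, the largest limma adjusted p was 0.0025. For Cd200r1, Cd226 and Havcr2 no p is given, since they entered the test through the imatinib arrays alone.

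The largest falls among the genes of the list were those of Cd40, Icam1, Lgals9, Slamf1 and Btla. Cd40, the receptor for T cell help, read 2.36 and 2.35 with imatinib and 3.35 and 3.23 without. It fell by 0.94 (SE 0.070, adjusted p = 0.0030). Icam1, an adhesion ligand of the integrin LFA-1, fell by 0.93 and Lgals9, a galectin, fell by 0.86. The lymphocyte receptor gene Slamf1 fell by 0.78, and Btla, an inhibitory receptor of B and T cells, fell by 0.72. The groups did not overlap for any of these 5 genes, as for 73.4% of all probes tested. Their largest limma adjusted p was 0.0040, but they were picked as the largest falls that passed, so neither value is separate support.

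**Figure D5:**
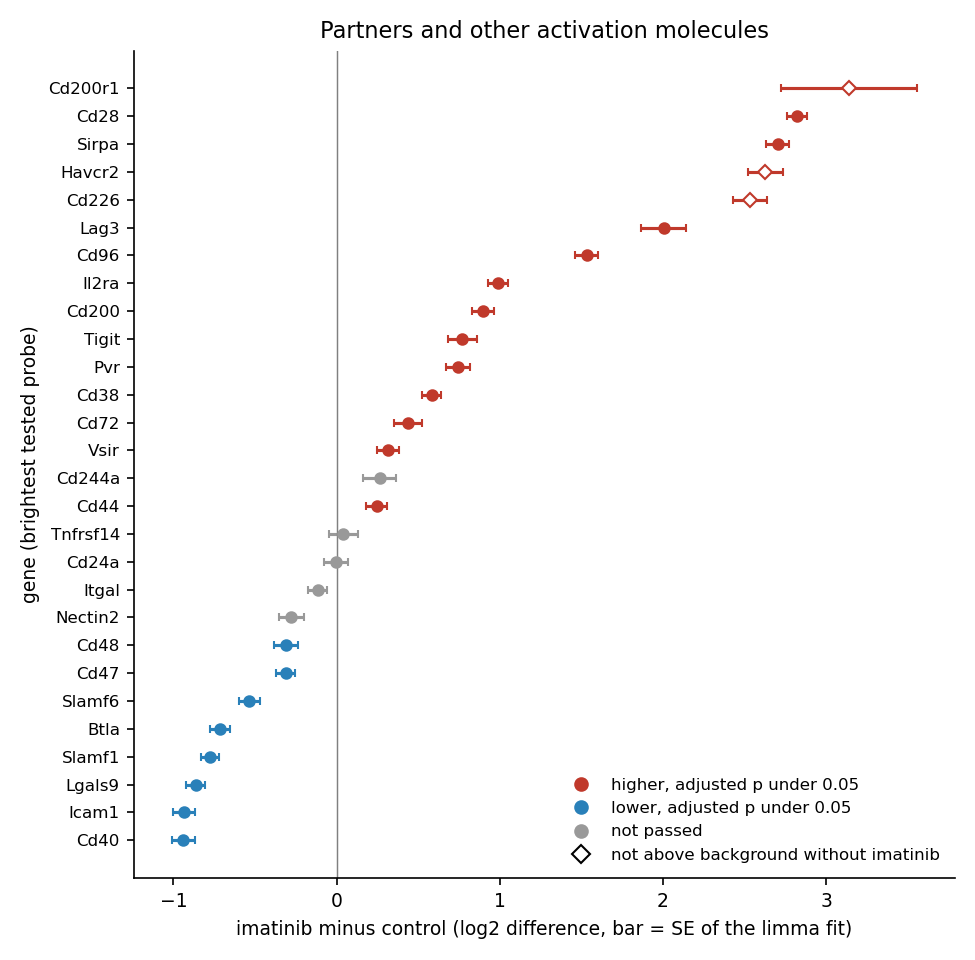
Difference between imatinib and control (x axis, log2) for the 28 tested genes of the partner list, sorted, with the SE of the limma fit as bars. Red genes rose, blue genes fell and grey genes did not pass at an adjusted p of 0.05; open diamonds mark Cd200r1, Havcr2 and Cd226, which were not above background without imatinib, so that their fitted differences are not a measure of size.

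Below the receptors of the CD28 family, 18 genes of signalling were tested, of which 8 rose and 2 fell, against 18.8% and 22.8% of all genes. The median was 0.18, against -0.0037 over all genes, and 1 of the 8, Sh2d1a, was above background on 1 control array only. With median centring they numbered 7 and 5, and with spike-ins 7 and 7, where the median was -0.083. Leaving out imatinib replicate 1 or imatinib replicate 2 left 5 higher and 0 lower. Prkcq, a protein kinase C of T cells, rose by 2.66 (SE 0.086), beside a median of 2.03 for the T cell markers. Pik3ip1, a negative regulator of PI3K, rose by 0.71, and the factors Nfatc1 and Nfatc2, which act downstream of calcium signals, rose by 0.66 and 0.59 (1.10 on a second Nfatc1 probe). Bcl10, an adaptor on the way to NF-kB, fell by 0.50 (adjusted p = 0.027) and the kinase gene Akt1 fell by 0.27 (adjusted p = 0.028). The call for Akt1 ended with any 1 array left out (adjusted p 0.074 to 0.167), and that for Bcl10 without imatinib replicate 1, imatinib replicate 2 or control replicate 2 (0.060 to 0.120).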

How the data were processed

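RNA of 4 splenocyte samples was hybridised to Agilent 1-colour (Cy3) arrays of design 026655. The authors extracted the spot intensity with Feature Extraction, which subtracts background and detrends within the array. The version read from the file headers, 9.1.3.1, is that of the grid placement step. A deposited table of log2 values came from GeneSpringGX, in the design text of the authors; for 99.9% of probes it equalled the log2 processed signal less a constant per array, to within 0.01.

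Control spots and outlier spots were left out, spots of a probe were averaged, and the 75th percentile of each array was subtracted. It was 647 and 629 (imatinib) and 678 and 782 (control). On the arrays 25018 to 26762 probes were well above background and none was saturated. Probes well above background on both arrays of a group (25375) entered limma 3.58.1 (R 4.3.3), two-sided, with Benjamini-Hochberg adjustment; the procedure was tested on simulated data. The number of arrays limits the precision.

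A gene was read by its brightest tested probe. Named genes were all members, up to 5 list genes per direction above background on all arrays with the largest change past the threshold, genes seen in 1 group only, and defining markers. Members, lists and settings were chosen with earlier results of these data known. Alternatives were normexp (offset 50), quantile, median and spike-in scaling (8 probes), other filters, the value table, a replicate block, another variance model, other probe choices and each array left out. RefSeq promoters were found for 6 of the 10 genes, not for Cd86, Cd83, Cd69 and Icos.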

Additional observations from a re-analysis of the deposited data

How the results depend on the processing

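The number of changed probes, 10747 over all, was 5186 without a filter on dim probes and 4128 to 8984 with 1 array left out, and the lowest values were those without an imatinib array (4200 and 4128). Of the 10 genes, 4 to 9 passed over the alternatives, 9 of them under spike-in scaling. With the dimmest probe of each gene 7 passed. The second Pdcd1lg2 probe changed sign under quantile normalization (-0.037), median centring (-0.15) and spike-in scaling (-0.24), and with 1 array left out (-0.069 to 0.12), and the brighter Cd80 probe under median centring (-0.040) and spike-in scaling (-0.13). None of these values passed. Cd44, which passed at 0.25 on its brightest probe, was -0.021 under spike-in scaling. Replicate numbers are shared between the groups, but same-numbered arrays did not deviate together (r = -0.07 across probes). With the replicate block 7643 probes and 5 of the 10 genes passed, and Cd86 no longer did (adjusted p = 0.086), nor did Bcl10 (0.062) and Akt1 (0.081). The causes were not tested.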

Other observations

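Receptor and ligand pairs of the partner list are given side by side, chosen after their values were seen. The inhibitory receptor gene Tigit rose by 0.77, as did its ligand gene Pvr by 0.75, while the other ligand gene, Nectin2 (Pvrl2 in the files), differed by -0.28 and did not pass (adjusted p = 0.054), or by 0.012 on a second probe. Cd200 rose by 0.90, and its receptor gene Cd200r1 was above background only with imatinib. Sirpa rose by 2.70, whereas its ligand gene Cd47 differed by -0.31 and passed (adjusted p = 0.019), a call that ended with any 1 array left out (adjusted p 0.052 to 0.123), and a second Cd47 probe fell by 0.42. Havcr2 was above background only with imatinib, while Lgals9, which encodes a ligand of TIM-3, fell by 0.86. Btla fell by 0.72, and Tnfrsf14, its binding partner HVEM, differed by 0.04 on its brighter probe (adjusted p = 0.73) and rose by 0.27 on the other (adjusted p = 0.030). The median differences of T cell and of macrophage markers were 2.03 and 0.50, and their part in these values was not tested.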
